A study of Mus musculus with 2 samples.

Results

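Vascular and leptomeningeal cells (VLMC) were taken as every nucleus that the authors annotated with that name, and numbered 326 of the 16314 nuclei (2.00%) in 2 libraries of mouse primary motor cortex. Replicate 1 held 143 VLMC of 7440 nuclei and replicate 2 held 183 of 8874. Accessible chromatin was measured by single-nucleus ATAC-seq on the droplet-based 10x platform, in which a transposase cuts open chromatin and each nucleus receives a DNA barcode. Both libraries came from the MOp-2 dissection (3C, in slice 3) and formed a single condition, so no treatment, genotype or time was compared. According to the methods of the study, the tissue came from adult C57BL/6J male mice of 56 to 63 days, and dissections of several mice of the same sex were pooled for each biological replicate. The labels do not say which mice went into which library, so the spread between the libraries may be partly technical. The other 2 vascular names, vascular endothelial cells (VEC, 145 and 247 nuclei in replicates 1 and 2) and pericytes (PER, 55 and 56 nuclei), served for comparison.

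VLMC are fibroblast-like cells that build the pia and arachnoid and line the perivascular space around penetrating vessels. Endothelial cells form the inner lining of vessels and its barrier, and pericytes lie on capillaries within the endothelial basement membrane. In a cortical dissection VLMC can therefore come from the brain surface and from larger vessels, and VEC and PER from vessels at any depth, those of the surface included. The deposited values give no position in the tissue for any nucleus, so these origins were not tested. ITL23GL, the intratelencephalic neurons of layers 2/3, are the uppermost of the named glutamatergic neurons, and CTGL, the corticothalamic neurons of layer 6, lie deep.

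The 4 genes used as VLMC markers are protein-coding genes whose positions are given in mm10 (GRCm38, GENCODE M21). Slc6a13, which encodes a transporter of GABA and taurine, spans 121300227 to 121337733 on chromosome 6 (plus strand). Nupr1, a small stress-induced chromatin-associated protein, lies on chromosome 7 from 126623249 to 126630861 (minus strand). Slc22a6, an organic anion transporter, spans 8618039 to 8628299 on chromosome 19 (plus strand). Tbx18, a T-box transcription factor that is also active in mural cells, lies on chromosome 9 from 87702800 to 87731260 (minus strand). The per-nucleus tables hold fragment counts, embedding coordinates and names, and accessibility at these genes was not analysed here, so the VLMC name was used as deposited and was not checked against its markers.

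The libraries held 48179226 unique fragments in replicate 1 and 55337466 in replicate 2. Each library contained all 17 annotated names. The libraries shared 105 cell barcodes, which is 1.41% of the nuclei of replicate 1 and 1.18% of those of replicate 2, and 11 of them carried the same name in both. The number that random pairing of names would give was not computed. Of the shared barcodes, 2 were VLMC in replicate 1 and 1 was VLMC in replicate 2, and none was VLMC in both. VLMC made up 1.92% of all nuclei in replicate 1 and 2.06% in replicate 2. Few shared barcodes could therefore be VLMC in both, and these counts show nothing particular to VLMC.

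VLMC made up close to 2% of the nuclei in both libraries, fewer than VEC in replicate 2 and more than PER in both. Their share of all nuclei was 1.92% in replicate 1 (exact Clopper-Pearson 95% interval 1.62 to 2.26) and 2.06% in replicate 2 (1.78 to 2.38), or 1.99% ± 0.0991 (SD, n = 2 libraries). VEC had 1.95% in replicate 1 and 2.78% in replicate 2 (2.37% ± 0.590), and PER 0.739% and 0.631% (0.685% ± 0.0765). All intervals cover counting error only. Among the 2719 non-neuronal nuclei of replicate 1 and the 3136 of replicate 2, VLMC accounted for 5.26% (4.45 to 6.17) and 5.84% (5.04 to 6.71).

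The VLMC share moved little between the libraries. Its log2 ratio of replicate 2 over replicate 1 was 0.10, with a 95% counting interval of -0.21 to 0.41, and 6 of the 17 names had a ratio closer to 0. Its sign turned with a depth minimum, to -0.059 (-0.42 to 0.30) at 2000 unique fragments and -0.46 (-1.55 to 0.63) at 5000, and each of these intervals included 0. The interval of VEC, by contrast, lay above 0 (0.51, 0.22 to 0.81), and that of PER included it (-0.23, -0.76 to 0.31). With 2 libraries an exact sign-flip test cannot give a two-sided p below 0.5, so no p-value was computed.

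Within the vascular nuclei VLMC were the largest of the 3 names in neither library. They made up 143 of 343 vascular nuclei in replicate 1 (41.7%, 36.4 to 47.1) and 183 of 486 in replicate 2 (37.7%, 33.3 to 42.1). VEC accounted for 42.3% in replicate 1, within counting error of VLMC, and for 50.8% in replicate 2, where the intervals of both names did not overlap. PER accounted for 16.0% in replicate 1 and 11.5% in replicate 2. The count of VLMC over the count of VEC was 0.986 in replicate 1 (0.783 to 1.24) and 0.741 in replicate 2 (0.612 to 0.897), or 0.864 ± 0.173 (SD, n = 2). The change of this ratio between the libraries, -0.41 on the log2 scale, had an interval of -0.85 to 0.020. VLMC outnumbered PER by 2.60-fold in replicate 1 (1.91 to 3.55) and by 3.27-fold in replicate 2 (2.42 to 4.41), and here the interval of the change also included 0 (0.33, -0.29 to 0.95).

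**Figure D1:**
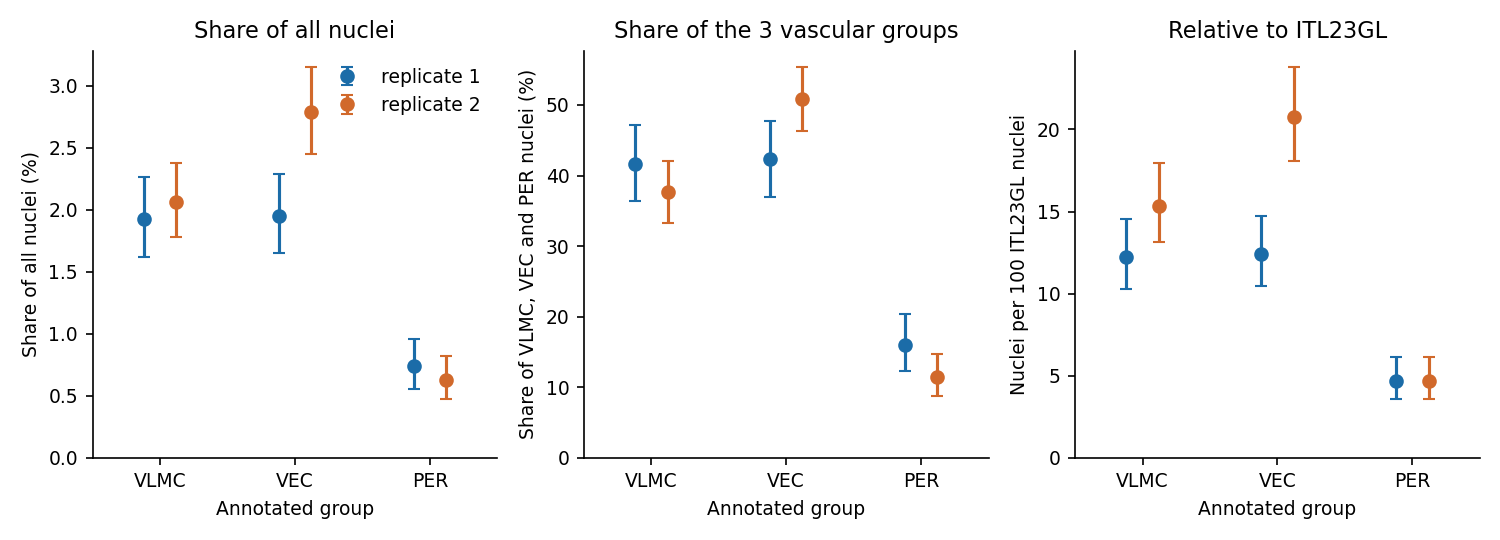
Share of all nuclei (%), share of the 3 vascular groups (%) and nuclei per 100 ITL23GL nuclei for VLMC, VEC and PER, with points for replicates 1 and 2 and 95% intervals that cover counting error only. The VLMC intervals of both libraries overlap in all 3 panels, while VEC stands higher in replicate 2, at 2.78% of all nuclei and 20.7 nuclei per 100 ITL23GL.

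VLMC were set against ITL23GL, since VLMC of the meninges and the upper layers both lie toward the brain surface. Both counts can rise with more surface tissue, so their ratio is no measure of it. VLMC of penetrating vessels enter the count as well. There were 12.2 VLMC for every 100 ITL23GL nuclei in replicate 1 (10.3 to 14.6) and 15.4 in replicate 2 (13.2 to 18.0), or 13.8 ± 2.22 (SD, n = 2). The log2 change of 0.33 between the libraries had an interval that reached 0 (-0.0075 to 0.67). The ratio depended strongly on the depth minimum, with a mean of 10.5 at 2000 unique fragments and of 1.36 at 5000. VEC moved further on the same scale, with 12.4 per 100 ITL23GL nuclei in replicate 1 and 20.7 in replicate 2 (log2 change 0.74, 0.42 to 1.06). PER stood at 4.70 in both libraries.

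The direction of the VLMC ratio depended on the neurons it was set against. ITL23GL itself made up 15.7% of the nuclei in replicate 1 and 13.4% in replicate 2 (log2 change -0.23, -0.33 to -0.12), whereas the share of CTGL was larger in replicate 2 (0.35, 0.21 to 0.48). Per 100 CTGL nuclei there were 22.0 VLMC in replicate 1 and 18.5 in replicate 2, a log2 change of -0.25 (-0.59 to 0.10). Over all glutamatergic nuclei the ratio barely differed, with 3.68 and 3.89 VLMC per 100 (log2 change 0.08, -0.24 to 0.40). Per 100 astrocytes (ASC), glia found in every layer, it was 17.9 and 20.6 (0.21, -0.14 to 0.55). None of these 4 changes had an interval that excluded 0, and the part of dissection depth in them was not tested.

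VLMC nuclei carried few fragments compared with most other names. Unique fragments are the properly paired fragments left after removal of duplicates. They ranged over the 143 VLMC of replicate 1 with a lowest count of 1053, a median of 2771 and a highest count of 9087, and over the 183 of replicate 2 with 1031, 2541 and 7921. The median was the 4th lowest of the 17 names in both libraries. The 3 deepest VLMC nuclei of replicate 1 had 9087, 7319 and 7318 unique fragments and those of replicate 2 had 7921, 7494 and 6949. The highest count was 3.28 and 3.12 times the median in VLMC, against 7.63 and 14.9 times in VEC and 7.12 and 5.10 times in PER.

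VLMC lay below VEC and slightly above PER in depth. The VLMC medians of 2771 in replicate 1 and 2541 in replicate 2 stood against 4256 and 3252 in VEC, a ratio of 0.651 and 0.781 (0.716 ± 0.0921, SD, n = 2). Against the PER medians of 2339 and 2066 the ratio was 1.18 and 1.23 (1.21 ± 0.0320). Among nuclei with at least 5000 unique fragments the ratio to PER turned to 0.723, over 15 and 12 VLMC but only 3 and 1 PER. Over all nuclei the order was the same in each of the 4 fragment counts. Total fragments had VLMC medians of 3348 in replicate 1 and 3117 in replicate 2, against 5393 and 4070 in VEC and 2855 and 2586 in PER. After unique mapping the VLMC medians were 3218 and 2980, and after proper pairing 3208 and 2968, so most of the loss before the unique count came at the removal of duplicates.

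VLMC were also narrow in depth where VEC were broad. The SD of log10 unique fragments was 0.190 and 0.184 in VLMC of replicates 1 and 2 (the 7th and 2nd narrowest of the 17 names), against 0.364 and 0.367 in VEC, the widest of the 17 names in both libraries, and 0.187 and 0.186 in PER. The upper quartile of VLMC was 1.76 times the lower one in replicate 1 and 1.74 times in replicate 2, against 3.70 and 3.03 times in VEC and 1.42 and 1.60 times in PER. At least 5000 unique fragments were found in 15 VLMC of replicate 1 (10.5%, 5.99 to 16.7) and 12 of replicate 2 (6.56%, 3.43 to 11.2). In VEC this number was 65 (44.8%) and 80 (32.4%), and in PER 3 and 1. No VLMC nucleus reached 10000, which allows a share of up to 2.10% in replicate 1 and 1.64% in replicate 2, whereas 22 VEC of replicate 1 (15.2%) and 32 of replicate 2 (13.0%) did. At the low end the shares lay close together in replicate 2, where 28 VLMC (15.3%) and 37 VEC (15.0%) had fewer than 1500, while in replicate 1 it was 12 VLMC (8.39%) and 19 VEC (13.1%).

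**Figure D2:**
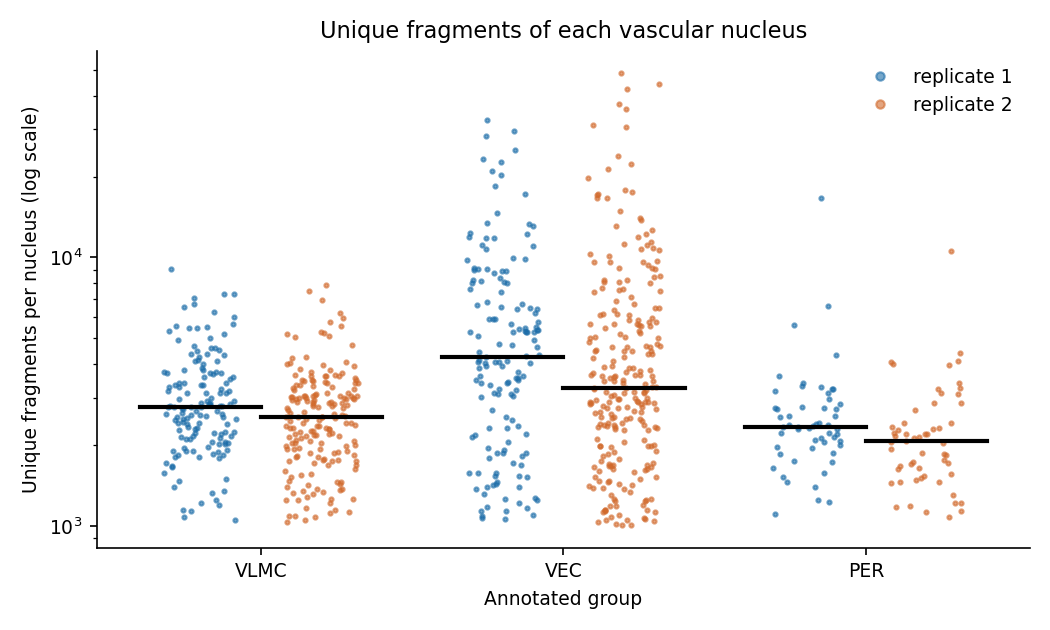
Unique fragments of each VLMC, VEC and PER nucleus on a log axis, with 1 point per nucleus, points spread sideways for display and black bars at the medians of replicates 1 and 2. VLMC end at 9087 and 7921 unique fragments, while VEC reach 32492 and 48511.

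VLMC accordingly gathered among the shallow nuclei of each library. With the nuclei of a library ordered by unique fragments and divided into 10 bins of about equal size, bins 1 to 4, the shallowest, held 126 of 143 VLMC in replicate 1 (88.1%, 81.6 to 92.9) and 170 of 183 in replicate 2 (92.9%, 88.2 to 96.2). The same bins held 53.1% and 61.5% of VEC, and 94.5% and 96.4% of PER. The VLMC share of a bin was highest in bin 2 of replicate 1 (5.65%, 4.10 to 7.55) and in bin 3 of replicate 2 (5.41%, 4.01 to 7.10), though the neighbouring bins lay within counting error. Only 1 VLMC in replicate 1 and 3 in replicate 2 fell in the 4 deepest bins, against 40 and 55 VEC. The lowest unique count of any nucleus was 1000 in both libraries, where the filter of the study stood, and VLMC below that count cannot be seen. A minimum of 5000 lowered the VLMC share of all nuclei to 0.299% and their count over that of VEC to 0.190, both as means of the 2 libraries. In sum over nuclei, VLMC supplied 442622 unique fragments in replicate 1 (0.919% of the library) and 492818 in replicate 2 (0.891%), less than their share of nuclei, against 1.86% and 2.53% from VEC and 0.315% and 0.236% from PER.

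**Figure D3:**
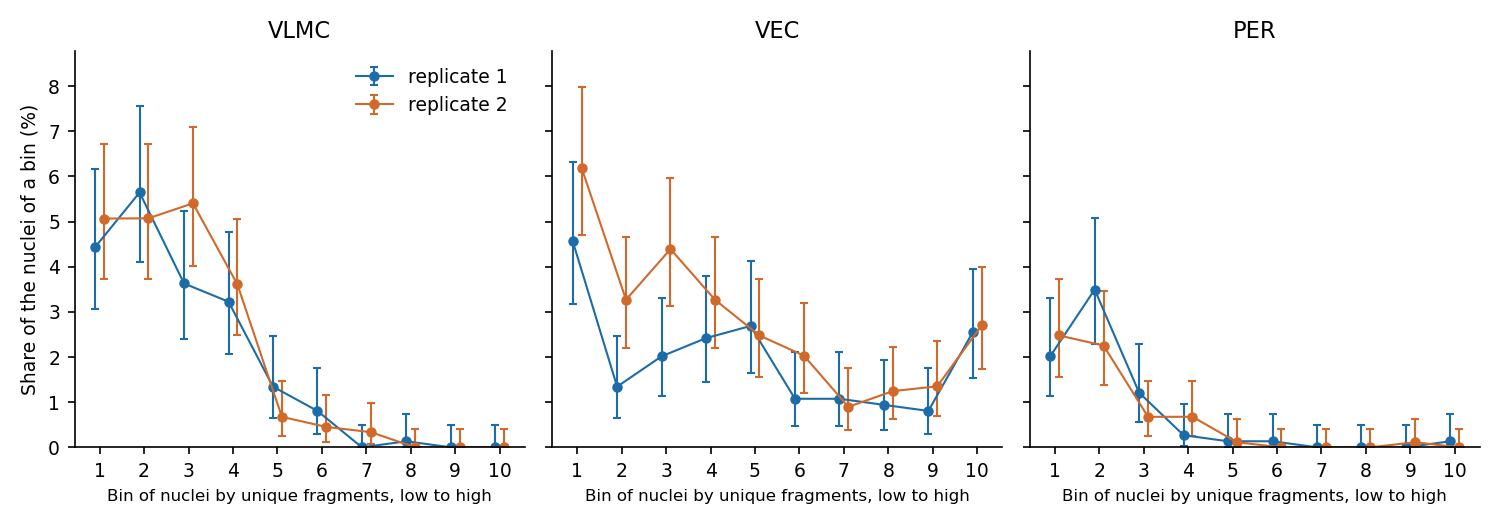
Share of VLMC, VEC and PER among the nuclei of 10 bins of about equal size of a library by unique fragments, from low to high, for replicates 1 and 2, with exact 95% intervals that cover counting error only. VLMC fall off after bin 4 in both libraries, and the share of VEC in bin 10 stays above that of VLMC.

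The share of total fragments that mapped uniquely was nearly identical in VLMC of both libraries and lay between those of VEC and PER. Its VLMC median was 95.6% in replicate 1 and 95.6% in replicate 2, with an SD of 0.00107 percentage points between the libraries, and single VLMC nuclei spanned 88.3% to 97.0% in replicate 1 and 89.4% to 97.3% in replicate 2. Among the 17 names the VLMC median was the 3rd lowest in both libraries. In replicates 1 and 2 that of VEC was the 2nd lowest and the lowest, and that of PER the 2nd and 5th highest. VEC had medians of 95.003% and 94.317%, and PER of 96.3% and 96.3%. VLMC thus exceeded VEC by 0.578 and 1.26 percentage points (0.920 ± 0.484, SD, n = 2) and differed from PER by -0.706 and -0.719 (-0.712 ± 0.00919).

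The order of the 3 names was the same at matched depth. When nuclei were weighted to the same unique fragments in bins of 0.1 on the log10 scale, VLMC minus VEC was 0.825 in replicate 1 and 1.40 in replicate 2, and VLMC minus PER was -0.672 and -0.733. The size of the difference from VEC depended on the setting, with 1.45 for means over nuclei and 0.218 for nuclei with at least 5000 unique fragments. Within VLMC the mapped share had little relation to total fragments (Spearman's rho -0.046 over 143 nuclei of replicate 1 and -0.034 over 183 of replicate 2). These correlations run over nuclei of a single library, which are not replicates.

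Duplicates made up 14.2% of the properly paired fragments in the median VLMC nucleus of replicate 1 and 14.9% in replicate 2. This was the highest median of the 17 names in replicate 1 and the 2nd highest in replicate 2, although the 14 names outside the vascular groups spanned only 13.4% to 14.1% and 14.3% to 14.9%. VEC had 14.0% and 14.5%, and VLMC minus VEC was 0.170 and 0.450 percentage points (0.310 ± 0.198, SD, n = 2), or 0.588 on average at matched depth. The difference from PER had opposite signs in the libraries, 0.0121 in replicate 1 and -0.0691 in replicate 2, and was smaller than its own spread (-0.0285 ± 0.0574). At matched depth it was negative in both, at -0.0694 and -0.366 (mean -0.218), and with at least 2000 unique fragments its mean was -0.344. Among VLMC the duplicate share was higher in nuclei with more total fragments, with a Spearman's rho of 0.465 in replicate 1 and 0.233 in replicate 2. Total fragments include the duplicates, so part of this relation may be built in. Proper pairing was near complete at a median of 99.6% of uniquely mapped VLMC fragments in both libraries. The deposited mitochondrial count was 0 in every nucleus of all names, so it was not read as a measure of quality.

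**Figure D4:**
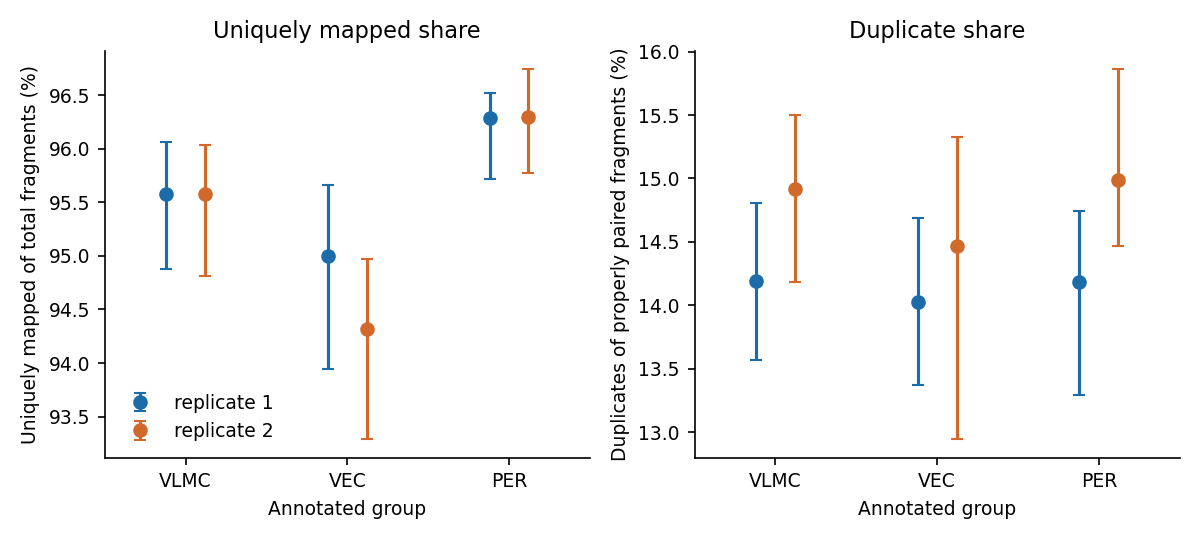
Median uniquely mapped share of total fragments (%) and median duplicate share of properly paired fragments (%) in VLMC, VEC and PER of replicates 1 and 2, with bars for the quartiles over nuclei and axes that do not start at 0. VLMC sit at 95.6% mapped in both libraries, between VEC and PER, while the duplicate shares of the 3 names overlap widely.

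In the deposited UMAP embedding, a map that places nuclei with similar accessibility close together, VLMC formed a single streak apart from all other names. The names were given to clusters of these profiles, so this separation is a description and no test of the name. Whether the map was made from these libraries alone or jointly with combinatorial indexing nuclei is not stated, and the distances, neighbours and mixing given here count only nuclei of the 2 libraries. All of the 30 nearest neighbours of every VLMC nucleus were VLMC, in 143 of 143 nuclei of replicate 1 and 183 of 183 of replicate 2. VLMC was 1 of 6 names with this property in both libraries, and PER was another. VEC had 96.1% and 95.3% neighbours of their own name. The nearest nucleus of another name lay 3.23 to 4.05 embedding units away (median 3.64), and the nearest other VLMC at a median of 0.0101. That nucleus of another name was CTGL for 173 of the 326 VLMC, ASC for 114 and a mature oligodendrocyte (OGC) for 39. It was never VEC or PER, and these distances were not read as a measure of how unlike the groups are.

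No VLMC nucleus lay among cells of another name. When nuclei within 0.5 units were joined, VLMC gave 1 island that held all of them, and the same was seen at 0.25 and at 1 unit. VEC gave 3 islands at 0.5 units, the largest holding 138 of 145 nuclei in replicate 1 (95.2%) and 218 of 247 in replicate 2 (88.3%), and PER gave 1. At 0.25 units PER divided into 2 islands, with 85.5% of replicate 1 and 80.4% of replicate 2 in the larger one. At 1 unit VEC gave 2 islands, with 95.2% and 94.3% in the larger one. Nuclei with mostly neighbours of other names numbered 0 in VLMC, against 7 VEC in replicate 1 (4.83%) and 14 in replicate 2 (5.67%). Since names were given to clusters of these profiles, such counts describe the map and carry no sampling limit. Doublets were removed by the authors, and no further caller was run.

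The libraries were evenly mixed within VLMC. Of the 30 nearest VLMC neighbours, 49.9% came from the other library, and random mixing of the same nuclei gives 49.4%, a ratio of 1.01. PER had the same ratio of 1.01, and the 14 names outside the vascular groups spanned 0.946 to 1.00. VEC had 0.748, the lowest of the 17 names.

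The VLMC streak was long in one direction. It spanned 2.09 units of umap2 in replicate 1 and 2.13 in replicate 2, against 0.451 and 0.462 units of umap1, whereas PER spanned 0.859 and 0.847 units of umap2. Joining nuclei only within 0.15 units, a radius chosen after the embedding had been seen, divided the streak into a lower and an upper lobe with 1 nucleus in neither. The upper lobe held 52 VLMC of replicate 1 (36.4%, 28.5 to 44.8) and 65 of replicate 2 (35.5%, 28.6 to 42.9), and the lower lobe 91 (63.6%) and 117 (63.9%). Both libraries thus filled the lobes in nearly the same proportion. A radius of 0.08 gave 4 pieces, 0.1 gave 3 and 0.2 gave 1, so the number of lobes depended on the radius and no cell type was assigned to them.

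The lobes differed in the mapped share. It was not used to divide them, but it changed along umap2, the direction in which the lobes lie apart. The difference therefore gives no separate support to the division. The median mapped share was 95.1% in the upper lobe of both libraries and 95.7% in the lower lobe of both, a difference of -0.614 percentage points in replicate 1 and -0.595 in replicate 2 (-0.604 ± 0.0138, SD, n = 2). Nuclei below the VLMC median of their library were 37 of 52 in the upper lobe of replicate 1 (71.2%) and 34 of 91 in the lower lobe (37.4%). In replicate 2 they were 43 of 65 in the upper lobe (66.2%) and 47 of 117 in the lower lobe (40.2%). Both lobes were set against the same median, so these shares restate the difference and do not test it. Spearman's rho between umap2 and the mapped share was -0.433 over 143 VLMC of replicate 1 and -0.415 over 183 of replicate 2. In PER, whose nuclei lie elsewhere on the map, it was 0.400 over 55 nuclei and 0.443 over 56. In VEC it was 0.069 over 145 nuclei and -0.026 over 247.

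Depth and duplicates were similar in both lobes. The median of unique fragments in the upper lobe was 1.05 times that of the lower lobe in replicate 1 and 0.999 times in replicate 2, and weighting to the same unique fragments left the mapped difference at -0.601 and -0.599. The duplicate share differed by -0.0433 and -0.0101 percentage points. At a radius of 0.08 the mapped share of the 3 larger pieces, from low to high umap2, was 95.92%, 95.36% and 94.96% in replicate 1 and 95.88%, 95.57% and 95.13% in replicate 2. These pieces held 58, 26 and 47 nuclei in replicate 1 and 63, 40 and 62 in replicate 2. The smallest piece, the 2nd from the low end of umap2, had 95.97% over 4 nuclei of replicate 1, above the lowest piece, and 95.64% over 12 nuclei of replicate 2.

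That smallest piece was a side group of 16 mostly deep nuclei at the low end of umap1. Its unique fragments had a median of 6619.5 (3283 to 9087) in replicate 1 and 4273.5 (1371 to 7921) in replicate 2, against medians of 2737 and 2423 in the other VLMC. Of the 16 nuclei, 15 lay above the median of the other VLMC, and the highest nucleus of each library, with 9087 and 7921 unique fragments, was among them. This group was picked out after the embedding had been seen, and whether its position goes with depth or with a kind of cell was not tested.

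**Figure D5:**
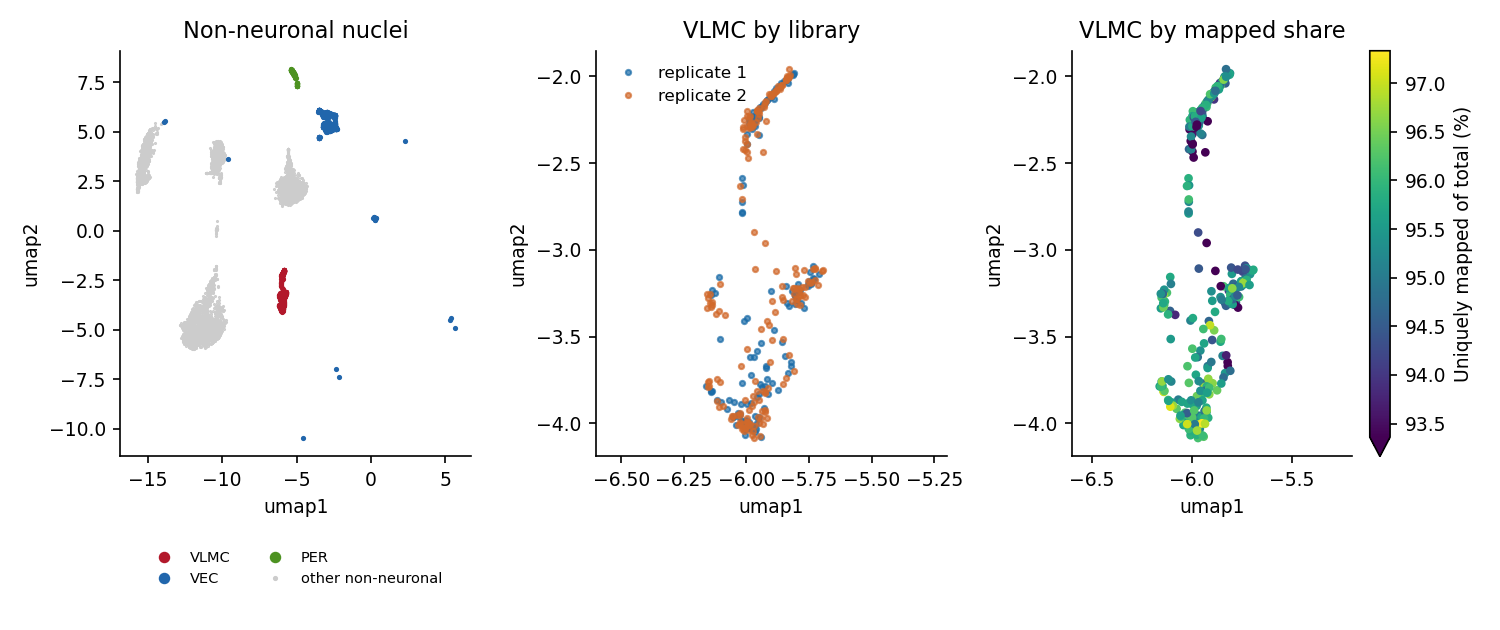
Positions in the deposited embedding (umap1 and umap2, no unit), with 1 point per nucleus, for VLMC, VEC, PER and other non-neuronal nuclei, for VLMC by replicate, and for VLMC coloured by uniquely mapped share of total fragments (%). The VLMC streak holds both replicates along its length, and its upper lobe has a lower median mapped share (95.1%) than its lower lobe (95.7%).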

How the data were processed

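Each library has a table with a line for every nucleus. It gives fragment counts deposited by the authors (total, then uniquely mapped, then properly paired, then unique, and mitochondrial), log10 values the authors made from the unique count plus 1, deposited embedding scores without a unit, and a name. Count columns were read by the names SnapTools uses. The study's methods describe alignment with bwa to mm10, a filter of fragments by mapping quality, proper pairing and length, duplicate removal with SnapTools, minimums of 1000 fragments and of TSS enrichment for nuclei, and removal of doublets by a modified Scrublet. Cell Ranger ATAC also appears in the submitters' processing notes. No version of these tools is given in the sources used here. How many VLMC the fragment filter removed is not known.

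Shares were given exact Clopper-Pearson 95% intervals, and ratios 95% log-method intervals. Limits for a share of 0 rest on 3 counts. PCR fragments without molecular identifiers are not independent molecules. Values are per library, then mean and SD over 2 libraries. Neighbours numbered 30, islands joined nuclei within 0.5 units with at least 5 nuclei, and matching used bins of 0.1 log10 unique fragments. Alternatives were minimums of 2000 and 5000 unique fragments, leaving out the deepest 5% of nuclei, each library alone, pooling, means, matching, other denominators, radii and neighbour numbers. Leaving out VEC nuclei outside their largest island, and everything on lobes and pieces, were added after seeing the data. VLMC, the groups compared and the 4 marker genes, the only genes named, were chosen with earlier results of these data known. Scripts were tested on simulated data. Versions were matplotlib 3.10.9, scikit-learn 1.9.0, scipy 1.17.1, pandas 2.3.3, numpy 2.4.6 and Python 3.11.15.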

Additional observations from a re-analysis of the deposited data

How the results depend on the processing

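The depth minimum moved the most values, and the cause was not tested. With at least 2000 unique fragments VLMC made up 1.65% of nuclei, with 3.49 VLMC per PER and 10.5 per 100 ITL23GL nuclei, a median of 3016 fragments (0.615 of VEC), and differences from PER of -0.613 in mapped and -0.344 points in duplicate share. With at least 5000, which left 15 and 12 VLMC, they made up 0.299% of all, 4.89% of non-neuronal and 15.5% of vascular nuclei, with 0.190 VLMC per VEC, 8.50 per PER (3 and 1 nuclei) and 1.36 per 100 ITL23GL nuclei. The median was then 5832 and 0.723 of that of PER, the mapped difference 0.218 from VEC and -0.617 from PER, the duplicate difference from PER -0.733 and the log2 ratio of shares -0.46. Without the deepest 5% the share of all nuclei was 2.10%. Means over nuclei gave 2894 unique fragments, 0.488 of VEC and 1.14 times PER, and mapped differences of 1.45 from VEC and -0.663 from PER. Matching gave a mapped difference from PER of -0.703 and duplicate differences of 0.588 from VEC and -0.218 from PER, and pooling gave -0.118 for the last. Each library alone put it at -0.0691 to 0.0121, so its direction is not settled. In place of ITL23GL, all glutamatergic nuclei gave 3.79 and CTGL 20.3 per 100. The mapped difference between lobes was -0.802 with means, -0.563 and -0.580 with the minimums of 2000 and 5000, and -0.856 and -0.693 between the outermost pieces at radii of 0.08 and 0.1. Leaving out VEC nuclei outside their largest island moved none of 5 values beyond the SD between libraries. Neighbour shares and mixing were not run at 5000, where 30 neighbours exceed the VLMC left. No paired analysis was possible because there was 1 condition.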
